A study of Mus musculus with 2 samples.

Results

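The genes described here are those of the cytosolic ribosomal proteins, in RANKL-treated bone marrow macrophages of Foxo3 knockout (KO) and wild-type (WT) genotype. They were chosen by symbol alone: Rpl or Rps followed by a digit, or Rpsa, Rplp0, Rplp1 or Rplp2, with the Rps6k kinases and symbols holding -ps left out. This gave 85 of the 16614 genes listed, 52 with large subunit symbols and 33 with small subunit symbols. Of these, 77 are core ribosomal proteins and 7 are paralogs named as like a core gene. The remaining symbol, Rps19bp1, is not a ribosomal protein: it encodes a partner of Rps19 that is also known as a regulator of the deacetylase SIRT1.

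The libraries used are 2, 1 from Foxo3 KO and 1 from WT cells, both of strain C57BL/6. In each, marrow from leg bones was grown for 3 days with M-CSF, which makes macrophages of marrow precursors, and then treated for 2 days with RANKL, the cytokine that starts osteoclast formation. Both groups therefore share the M-CSF and RANKL treatment, and the labels give no untreated cells, no age or number of mice, and no detail of the Foxo3 allele. FoxO3 is a forkhead transcription factor, and the series title names an isoform of it and inhibition of osteoclasts. Poly-A RNA was sequenced, and levels are in FPKM, a fragment count divided by transcript length and library size. Since neither group has a replicate, no error or test can be given, and each difference describes these 2 libraries and not the genotypes. In bulk RNA, more cells of a type and more RNA per cell cannot be told apart.

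A ribosome is built from a large and a small subunit, each a core of ribosomal RNA dressed with proteins that are needed in nearly equal numbers. The small subunit reads the mRNA, and the large subunit joins amino acids and passes the growing chain out through its exit tunnel. Mammalian ribosomal protein mRNAs are short, abundant and known for a start of C followed by a run of pyrimidines, through which growth signals control their translation as a set. Most of these genes have left many processed pseudogenes in the genome, copies of the mRNA that can share its reads.

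Foxo3 itself stood at 0.548 FPKM in the KO library and 10.3 FPKM in the WT library, 5.33% of the WT value. Depth is not stated. By the steps between low values the KO library was 1.40 times as deep, and the part of depth in the differences was not tested. Osteoclast markers were abundant in both libraries, with all 10 measured. They summed to 23066 FPKM in the KO and 20525 FPKM in the WT library. Acp5, Ctsk and Mmp9 made up most of this sum, at 8636, 6862 and 5815 FPKM in the KO library. In the WT library these genes read 7737, 6106 and 5009 FPKM. KO values exceeded WT values for 7 of the 10 markers and fell short for 3, Dcstamp, Calcr and Itgb3. The 8 macrophage markers summed to 8276 FPKM in the KO and 10171 FPKM in the WT library. Most of that sum was Lyz2, at 5674 FPKM in the KO and 7501 FPKM in the WT library. In the KO library 7 of the 8 were lower, while over all measured genes 57.6% were higher and 42.4% lower. Of the T, B and NK cell list 0 of 7 markers reached 1 FPKM in either library, with Cd3e at 0 in both. Of the neutrophil list 3 of the 4 markers found did, led by S100a8 at 67.0 FPKM in the KO and 70.2 FPKM in the WT library. Of the stromal list 2 of 5 did, led by Col1a1 at 3.24 FPKM in the KO and 3.35 FPKM in the WT library.

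The first bases of the transcript were compared, a feature the choice by symbol did not use. RefSeq sequences (GRCm38.p6) were found for 65 of the 85 genes, 57 of them core. In 13 of the 57, or 22.8%, a listed start was a C that opened a run of at least 5 pyrimidines, against 3.01% of 27025 genes in the same table. The letters CTTTT or CTTTC lay within 15 bases of a listed start in 20 of the 57, or 35.1%, against 8.11% of all genes. A listed start that is off by a few bases would be missed. Genes from both subunits follow with 10 bases before and 20 bases from the start, 5′ to 3′ on GRCm38.p6, with the run of pyrimidines that begins at the start in capitals. Rpl27a, which opens with T and so was not counted, and Rpl41, whose listed start has no such run, are added because they had the highest log2 ratios of the large subunit.
Rps6: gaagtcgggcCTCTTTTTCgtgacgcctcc
Rps10: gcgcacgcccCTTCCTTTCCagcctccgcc
Rps15a: tttctgccatCTTCCCTCgccggtgagtga
Rps27: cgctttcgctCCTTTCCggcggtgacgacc
Rpl15: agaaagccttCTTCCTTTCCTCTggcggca
Rpl28: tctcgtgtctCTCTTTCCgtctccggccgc
Rpl35: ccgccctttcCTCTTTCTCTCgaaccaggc
Rpl38: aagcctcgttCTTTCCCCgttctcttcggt
Rplp2: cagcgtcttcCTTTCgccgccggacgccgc
Rpl27a: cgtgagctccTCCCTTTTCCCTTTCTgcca
Rpl41: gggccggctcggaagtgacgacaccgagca
The 13 genes with such a start had a median log2 ratio of 0.09 between the libraries, and the 44 core genes without it had one of 0.07. The log2 ratio here and throughout is log2(KO + 1) minus log2(WT + 1), with 1 FPKM added to each value.

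Ribosomal protein mRNA made up 14.3% of all FPKM in the KO library and 13.8% in the WT library. Of the 100 genes highest in FPKM, 46 were members in the KO and 45 in the WT library. Core genes had a median level of 957 FPKM in the KO and 905 FPKM in the WT library. Their levels were close to one another: 61 of the 77 lay within 2-fold of that median in each library. The order of the core genes was nearly alike in both, with a Spearman coefficient of 0.996 between KO and WT levels, across genes that share both libraries.

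The large subunit genes summed to 43237 FPKM in the KO and 40726 FPKM in the WT library. The small subunit genes summed to 34019 FPKM in the KO and 32424 FPKM in the WT library. The sum of large over small was 1.27 in the KO and 1.26 in the WT library. Per gene the small subunit stood higher: the median core level was 886 FPKM for the large and 1073 FPKM for the small subunit in the KO library, and 852 FPKM for the large and 1018 FPKM for the small subunit in the WT library.

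**Figure D1:**
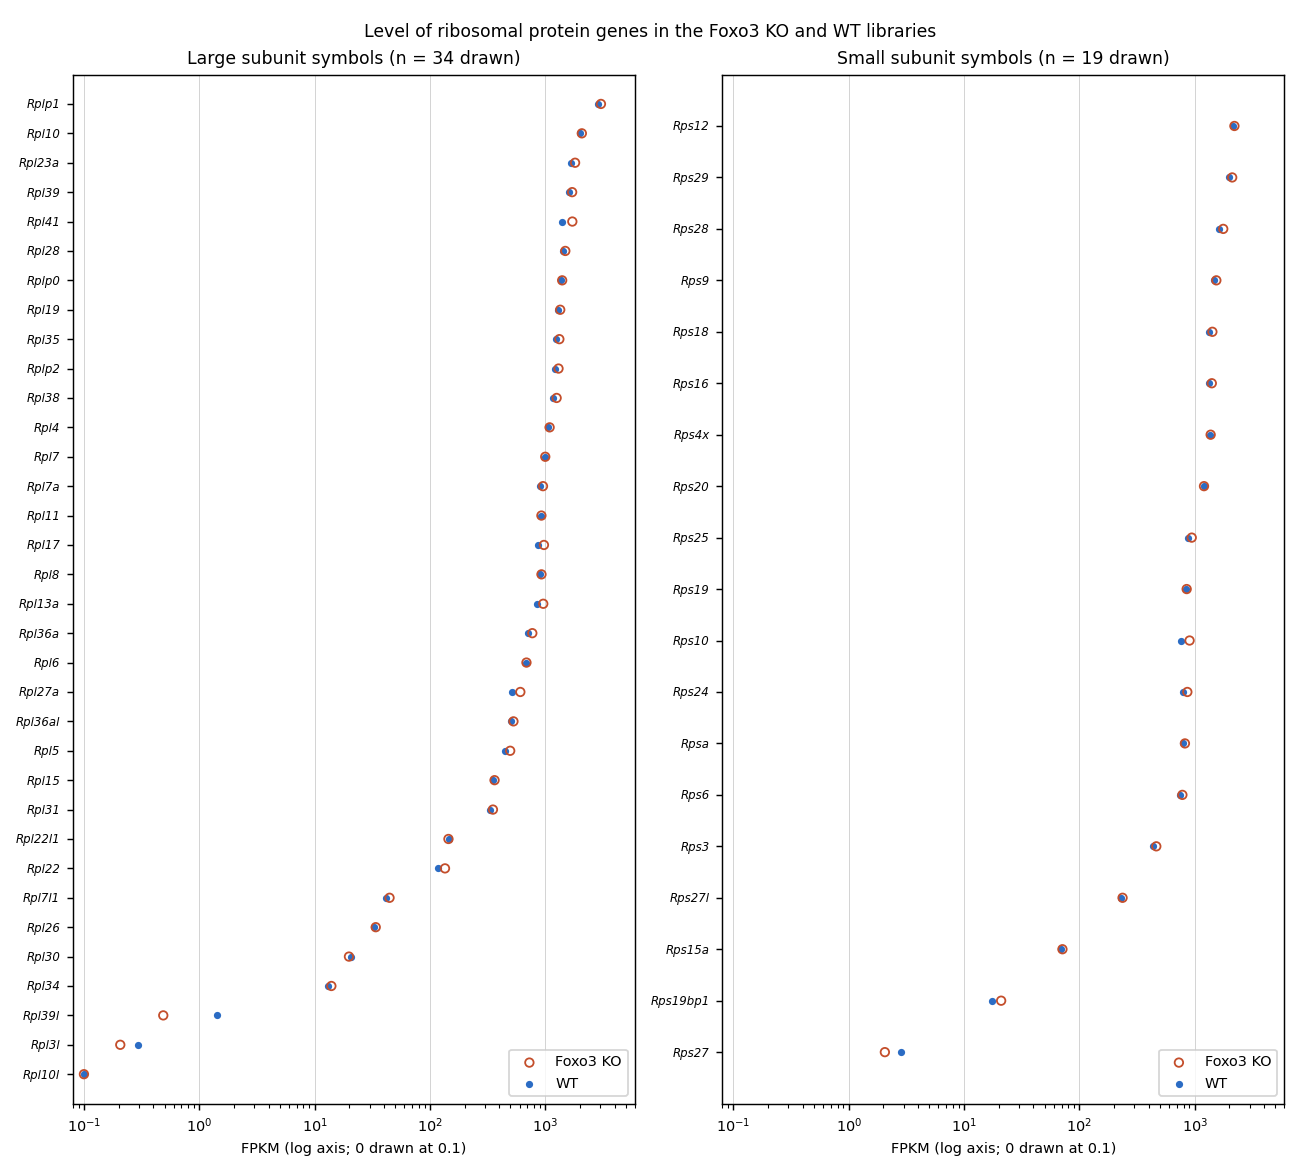
Level in FPKM (log axis) of the 53 genes named in the text in the Foxo3 KO library (open circles) and the WT library (filled points), by subunit and in order of the mean. Most core genes drawn sit above 100 FPKM, with Rplp1 the highest at 3046 FPKM in the KO and 2859 FPKM in the WT library, and a tail of paralogs and a few core genes sits far below them.

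Among large subunit genes the highest was Rplp1, one of the acidic stalk proteins that recruit elongation factors (chromosome 9, 61913284 to 61914542, GENCODE M21 on GRCm38). It stood at 3046 FPKM in the KO and 2859 FPKM in the WT library. The other stalk genes were lower in level: Rplp0, the base of the stalk, read 1404 FPKM in the KO and 1363 FPKM in the WT library. Rplp2 read 1305 FPKM in the KO and 1229 FPKM in the WT library. All 3 stalk genes were higher in the KO library, under both scalings too, by log2 ratios from 0.04 to 0.09. Over all measured genes 57.6% were higher, or 50.3% with both libraries scaled to equal sums. Of the measured ribosomal protein genes 95.2% were higher, or 85.5% with equal sums, so this is not particular to the stalk.

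Next in level was Rpl10, the X-linked gene of a protein that joins the large subunit late in its assembly, at 2080.0 FPKM in the KO and 2025 FPKM in the WT library. Rpl23a, at the rim of the exit tunnel where the signal recognition particle docks, read 1817 FPKM in the KO and 1665 FPKM in the WT library. Exons of Rpl23a overlap those of Tlcd1. Rpl39, a small protein of the tunnel wall, read 1714 FPKM in the KO and 1626 FPKM in the WT library. Rpl28 stood at 1495 FPKM in the KO and 1415 FPKM in the WT library, and its exons overlap those of Ube2s. The 8 genes of the exit tunnel looked at, Rpl4, Rpl17, Rpl19, Rpl23a, Rpl26, Rpl31, Rpl35 and Rpl39, were all higher in the KO library, also under both scalings, with a median log2 ratio of 0.07. That is beside 57.6% of all measured genes, and 95.2% of the measured ribosomal protein genes, as deposited. With equal sums these shares were 50.3% and 85.5%, and after trimmed-mean scaling 51.8% and 88.0%.

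Among small subunit genes Rps12, of the beak of the subunit head, was highest at 2211 FPKM in the KO and 2162 FPKM in the WT library. Rps29, another protein of the head, read 2115 FPKM in the KO and 1979.7 FPKM in the WT library. Rps28 read 1769 FPKM in the KO and 1639 FPKM in the WT library, Rps9 read 1541 FPKM in the KO and 1463 FPKM in the WT library. Rps18 followed at 1424 FPKM in the KO and 1328 FPKM in the WT library, and Rps16 at 1408 FPKM in the KO and 1326 FPKM in the WT library. Exons of Rps28 overlap Kank3, and those of Rps18 overlap Vps52. The 14 head genes had a median log2 ratio of 0.08 and the 17 other core small subunit genes one of 0.05.

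Between the libraries, nearly every ribosomal protein gene was slightly higher in the KO library as deposited, and 71 of the 83 measured were so with equal sums. Genes that reached 1 FPKM in either library were counted as measured, and 83 of the 85 were. Of the 83, 79 had a log2 ratio above 0, or 95.2%, against 57.6% of all 10003 measured genes, and 4 were below 0, against 42.4%. Their median log2 ratio was 0.07, against 0.03 over all measured genes. With both libraries scaled to an equal sum, 71 of the 83 were above 0, against 50.3% of all genes, and after trimmed-mean scaling 73 were, against 51.8%. No member differed by 2-fold in either direction, while 0.12% of all measured genes were 2-fold higher and 0.2% 2-fold lower in the KO library. At a log2 ratio of 0.32 from 0, 0 members were higher, against 2.96% of all measured genes, and 2 were lower, Rpl39l and Rps27, against 4.16%.

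The differences were also narrow. For 61 of the 83, or 73.5%, the log2 ratio lay within 0.1 of 0, against 52.8% of all measured genes. Abundant genes served as a closer background, chosen after the values were seen. Of 788 other genes at 100 FPKM or more in at least 1 library, 65.4% were above 0 and 45.9% within 0.1 of 0, with a median of 0.05. Of the 148 among them with transcripts of 1000 bases or less, 82.4% were above 0, with a median of 0.12. Ribosomal protein genes at 100 FPKM or more had 74 of 75 above 0 and a median of 0.07. Of the 75, 7 were at least 1.1-fold higher, against 26.6% of the other abundant genes. The short abundant genes of other kinds thus stood higher in the KO library by more at the median, though less uniformly in direction. What transcript length contributes to the ribosomal protein values was not tested.

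Large and small subunit genes were then set side by side. Of the 50 measured large subunit genes 47 were above 0, or 43 with equal sums, with a median log2 ratio of 0.07, a middle 50% from 0.04 to 0.10 and an SD across genes of 0.13. Of the 33 small subunit genes 32 were above 0, or 28 with equal sums, with a median of 0.06, a middle 50% from 0.04 to 0.10 and an SD of 0.09. The large median exceeded the small by 0.006, a difference that could not be tested. At 1.1-fold or more, 6 large and 2 small subunit genes were higher in the KO library, against 19.2% of all measured genes. In turn 1 of each was lower, against 14.8%. The small subunit counts here include Rps19bp1, which is not a ribosomal protein. Among core genes alone 6 large and 1 small subunit genes were higher at 1.1-fold, and 0 large and 1 small were lower.

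**Figure D2:**
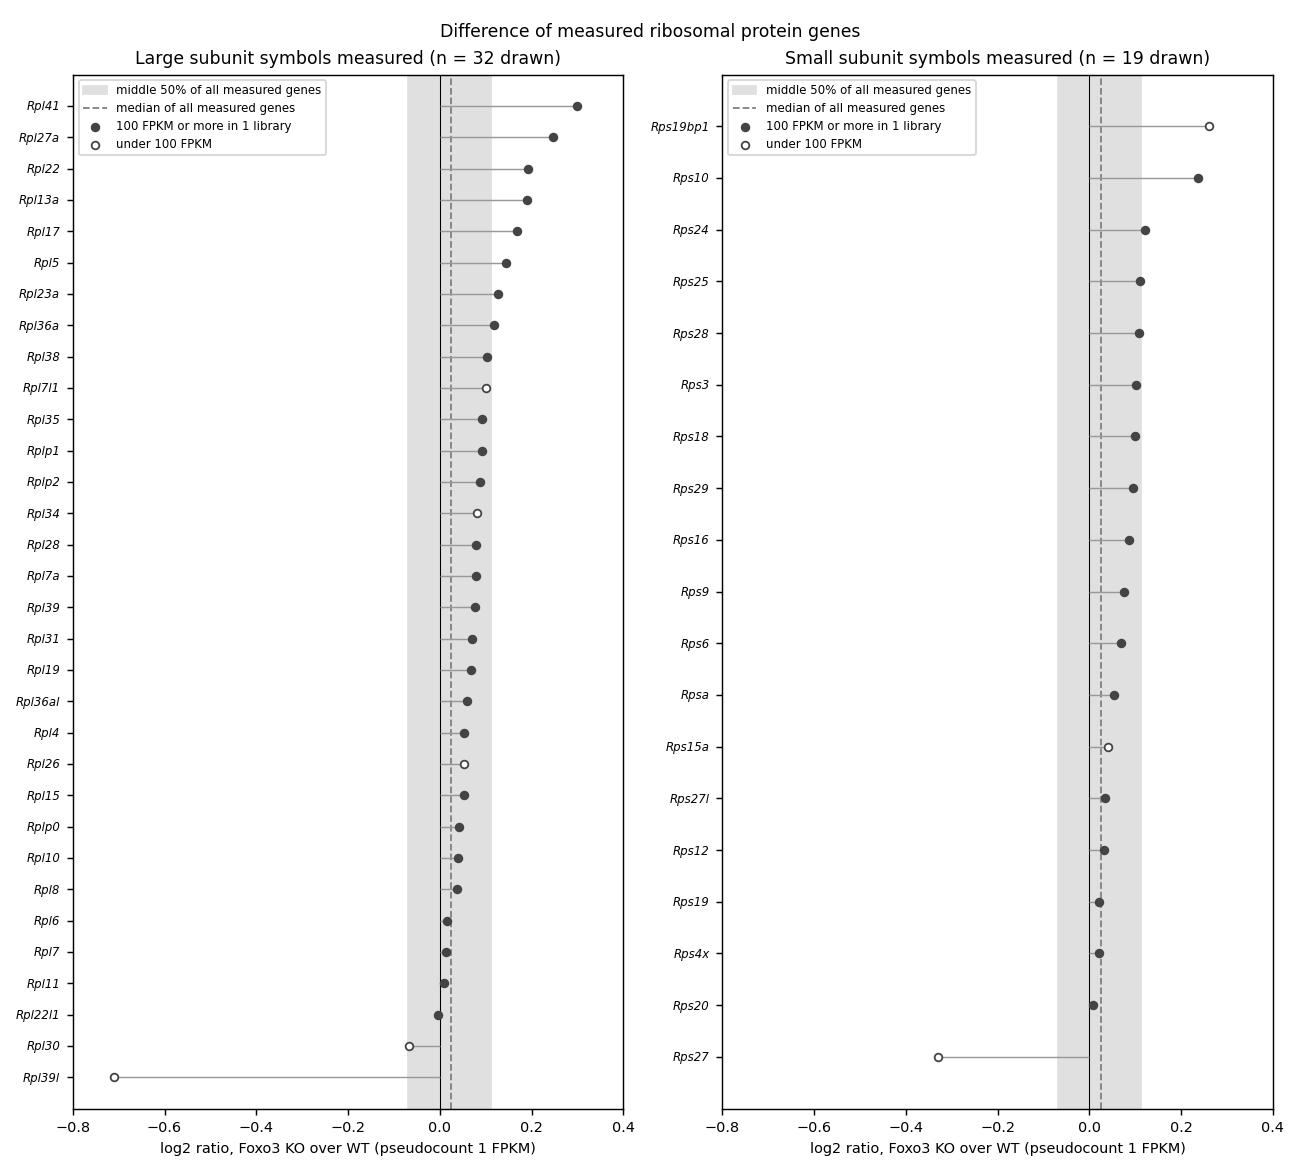
Log2 ratio, Foxo3 KO over WT, of the 51 measured genes named in the text, by subunit, with filled points for genes at 100 FPKM or more in at least 1 library. Most points lie between 0 and 0.20, with Rpl41, Rpl27a, Rps19bp1 and Rps10 above that range, and those far below 0, Rpl39l and Rps27, are of very low level.

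The largest difference above 0 was in Rpl41, which encodes the smallest ribosomal protein, of 25 codons in the annotation (chromosome 10, 128548114 to 128549305). It read 1720.2 FPKM in the KO and 1397 FPKM in the WT library, a log2 ratio of 0.30. Rpl27a (chromosome 7, 109519147 to 109522367) read 609 FPKM in the KO and 513 FPKM in the WT library, a log2 ratio of 0.25. Rpl22, an RNA-binding protein known in mice for its part in T cell development, read 135 FPKM in the KO and 118 FPKM in the WT library. Rpl13a, known in human monocytes for a role outside the ribosome as a silencer of inflammatory mRNAs, read 962 FPKM in the KO and 844 FPKM in the WT library. Their log2 ratios were both 0.19, and exons of Rpl13a overlap the coding model Gm45713.

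Rps10 had the highest log2 ratio of the core small subunit genes, at 903 FPKM in the KO and 767 FPKM in the WT library, a log2 ratio of 0.24 (chromosome 17, 27630418 to 27636669). Its exons overlap those of RPS10-NUDT3, an annotated model that reads on into the next gene, so reads of Rps10 and of that model may not be separable. After it came Rps24 at 864 FPKM in the KO and 794 FPKM in the WT library and Rps25 at 943 FPKM in the KO and 873 FPKM in the WT library. Their log2 ratios were 0.12 for Rps24 and 0.11 for Rps25. Rps25 exons overlap Ccdc84 and Trappc4.

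Core genes without a RefSeq start sequence could not be searched for letters near the start. Of the 57 core genes searched, Rpl41 alone had FoxO letters near its start, and it had the highest log2 ratio of all members. Bases upstream of Rpl41 are shown for these reasons. They run from 250 to 138 bases before the RefSeq start, outside every annotated exon, 5′ to 3′ on the gene's strand, with the match in capitals, which reads GTAAACA on the opposite strand.
Rpl41, GRCm38.p6 chr10:128549306-128549418, minus strand: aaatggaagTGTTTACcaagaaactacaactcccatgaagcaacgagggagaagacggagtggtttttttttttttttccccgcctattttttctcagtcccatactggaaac
The letters searched, on both strands and after the values were seen, were GTAAACA, a core of FoxO binding sites, CCGGAAG, bound by ETS factors such as GABPA, GGGCGG for SP1, AAGATGGC for YY1 and TATAAA for the TATA box. No pair of them overlaps upstream of Rpl41 or Rps10. Rpl41 held the FoxO letters 241 bases before its start, CCGGAAG 56 bases before it and GGGCGG on the opposite strand 31 bases before it. Rps10 held CCGGAAG 29 bases before its start and GGGCGG at 166 and 149 bases before it. The GENCODE bounds given above reach beyond the RefSeq start in both genes. CCGGAAG and GGGCGG of Rpl41 and Rps10 therefore lie within those bounds. Over windows of 250 bases before to 50 after a listed start, GTAAACA was found in 1 of 57 core genes, Rpl41, against 4.05% of all genes in the table and 2.95% of 7758 measured genes. CCGGAAG was found in 24 of the 57, or 42.1%, against 9.93% of all genes and 22.1% of measured genes. GGGCGG was found in 61.4% of the core genes, against 38.2% of all genes and 70.4% of measured genes. AAGATGGC was found in 8.77%, against 3.19% and 5.98%, and TATAAA in 10.5%, against 15.7% and 8.03%. These are matches of letters, not binding sites.

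The lowest log2 ratios among abundant genes lay near 0 in both subunits. Rpl11 and Rpl5 bind the 5S ribosomal RNA together and are known to restrain MDM2, the inhibitor of p53, when ribosome assembly falters. Rpl11 read 928 FPKM in the KO and 921 FPKM in the WT library, a log2 ratio of 0.01. Rpl5, looked at after its value was seen, read 497 FPKM in the KO and 450.1 FPKM in the WT library, a log2 ratio of 0.14. Exons of Rpl5 overlap Fam69a. Rpl7 and Rpl6, both of the large subunit, had log2 ratios of 0.01 and 0.02.

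In the small subunit Rps20 read 1205 FPKM in the KO and 1197 FPKM in the WT library. Rps4x, an X-linked gene, read 1376 FPKM in the KO and 1355 FPKM in the WT library. Rps19, the gene most often mutated in human Diamond-Blackfan anaemia, read 852 FPKM in the KO and 839 FPKM in the WT library. The log2 ratios of these 3 ran from 0.01 to 0.02, and 19 genes linked to that anaemia in humans had a median of 0.07, with 18 above 0. Under equal-sum scaling 14 of the 19, or 73.7%, were above 0, beside 85.5% of the measured ribosomal protein genes and 50.3% of all measured genes.

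The 7 like paralogs ranged from abundant to listed at 0. Rpl36al, whose coding sequence is 87.7% identical to that of Rpl36a, read 531 FPKM in the KO and 509.7 FPKM in the WT library, 68.6% of its partner in the KO and 71.6% in the WT library. Its exons overlap the coding model Gm49383. Rps27l, known in humans as a p53 target, read 237 FPKM in the KO and 231 FPKM in the WT library. Rpl22l1 read 145.0 FPKM in the KO and 145.5 FPKM in the WT library, above its partner Rpl22 in both, and was 107.1% of it in the KO and 122.9% in the WT library. Rpl22l1 was the single member at 100 FPKM or more with a log2 ratio below 0 as deposited, at -0.005, whereas with equal sums only 66 of those 75 were above 0. The log2 ratio of Rpl22 was 0.19.

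Of the other paralogs, Rpl7l1 read 44.7 FPKM in the KO and 41.6 FPKM in the WT library, which was 4.46% of Rpl7 in the KO and 4.19% in the WT library. The paralogs known for narrow tissue use were near the bottom. Rpl3l, a paralog of muscle, read 0.207 FPKM in the KO and 0.294 FPKM in the WT library, and Rpl10l, a retrocopy used in testis, was listed at 0 in both. Rpl39l, also of testis, read 0.487 FPKM in the KO and 1.43 FPKM in the WT library, a log2 ratio of -0.71. Rpl39l counted as measured through the WT library alone, and its difference rests on values near the lower limit. Rps19bp1 read 21.0 FPKM in the KO and 17.3 FPKM in the WT library, a log2 ratio of 0.26.

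**Figure D3:**
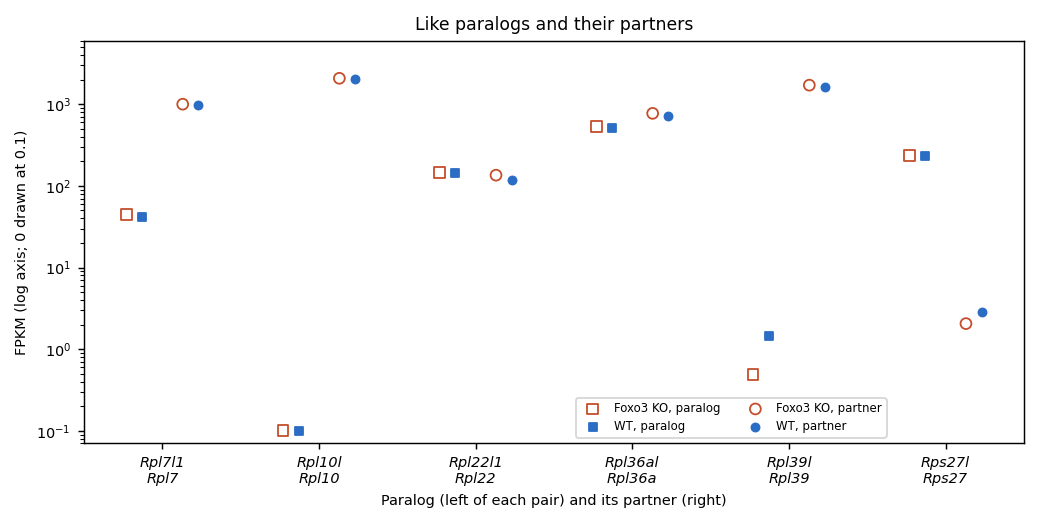
FPKM (log axis) of 6 like paralogs, without Rpl3l (squares), and of the partner of each (circles), with open symbols for the Foxo3 KO library left of filled symbols for the WT library. Rpl22l1 and Rps27l sit above their partners and the others below, with Rps27 at only 2.06 FPKM in the KO and 2.84 FPKM in the WT library.

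A few core genes were listed far below the rest although the ribosome needs their proteins like the others. Rps27 (chromosome 3, 90212522 to 90213651) stood at 2.06 FPKM in the KO and 2.84 FPKM in the WT library, a log2 ratio of -0.33. Rpl34 (chromosome 3, 130726831 to 130730398) stood at 14.0 FPKM in the KO and 13.2 FPKM in the WT library. Rpl30 read 19.9 FPKM in the KO and 20.9 FPKM in the WT library, Rpl26 read 33.9 FPKM in the KO and 32.7 FPKM in the WT library, and Rps15a read 71.3 FPKM in the KO and 69.3 FPKM in the WT library. These 5 genes, chosen after their values were seen, compare with a median core level of 957 FPKM in the KO and 905 FPKM in the WT library.

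For a pair of them a near copy was listed at the level usual for core genes. Gm9846, which RefSeq gives as an older name of Rps27rt (chromosome 9, 114982366 to 114982739), stood at 1748 FPKM in the KO and 1617 FPKM in the WT library. Every 50-base stretch of the Rps27 coding sequence also occurs in Rps27rt, and Rps27 held 0.117% of their summed level in the KO and 0.175% in the WT library. The processed pseudogene Rpl34-ps1 (chromosome 6, 71124610 to 71124963) stood at 1237 FPKM in the KO and 1143 FPKM in the WT library. Of the 50-base stretches of the Rpl34 coding sequence, 72.2% occur in it, and Rpl34 held 1.12% of their summed level in the KO and 1.14% in the WT library.

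As sums, the Rps27 pair had a log2 ratio of 0.11 and the Rpl34 pair one of 0.11, both within the range of the other core genes. Rps27 alone was therefore below 0 while its sum with Gm9846 was above 0. How the authors' counting divided reads between these rows is unknown, so the levels and ratios of Rps27 and Rpl34 are uncertain. For Rpl30, Rpl26 and Rps15a no gene sharing a 50-base stretch of their coding sequence was among those listed. The GENCODE transcript taken for Rps15a is 5179 bases long with a coding sequence of 390 bases, and FPKM divides by length. The transcript length behind the deposited values is unknown, and its part in the level of Rps15a was not tested.

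Sharing of this kind was widespread. At the median 93.0% of the 50-base stretches of a core coding sequence also occurred in an annotated transcript of another gene, most often a pseudogene. For 30 of the 77 every stretch did. Rpl7a shared stretches with 123 other genes. The Spearman coefficient of level with this share was -0.07 across the 77 genes, which share both libraries. Rpl8 and Rps3, with 8.73% and 8.09% shared, had log2 ratios of 0.04 and 0.10.

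**Figure D4:**
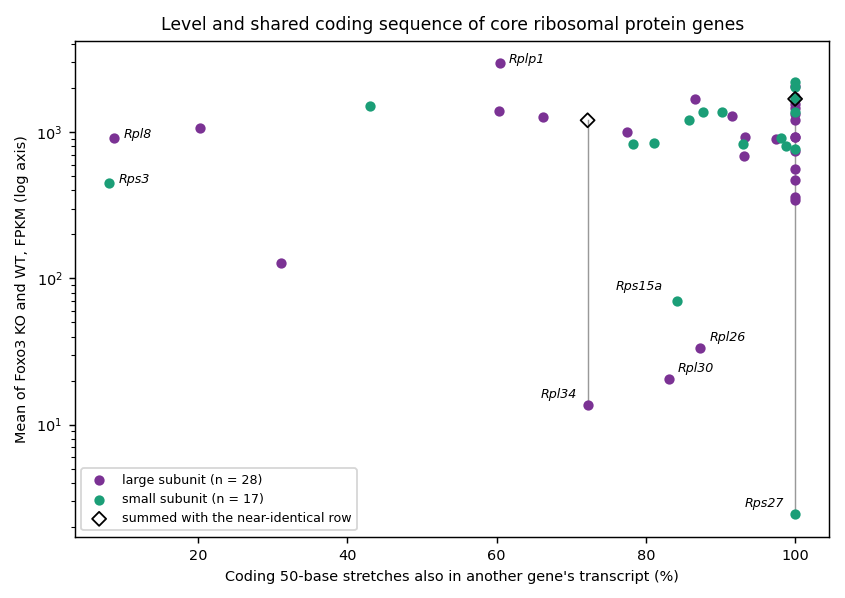
Mean of the Foxo3 KO and WT levels (FPKM, log axis) of the 45 core genes named in the text against the percentage of 50-base stretches of the coding sequence found in another gene's transcript. Diamonds show Rps27 and Rpl34 summed with Gm9846 and Rpl34-ps1, which places them among the other core genes.

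Length, GC content and level were compared with the difference across genes. Across the 72 core genes at 100 FPKM or more, the Spearman coefficient of log2 ratio was -0.25 with coding length, 0.08 with GC content and 0.02 with level. These describe genes that share both libraries. Within these genes the 49 with transcripts of 1000 bases or less and the 23 with longer ones both had a median log2 ratio of 0.07. The 30 core genes that hold a snoRNA within their bounds, 58 snoRNAs in all, had a median of 0.06, and the 47 others one of 0.07. The 77 core genes lie on 19 chromosomes, 14 of them on chromosome 7.

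Ribosomal proteins with other symbols lay with the rest. Fau, a fusion of a ubiquitin-like protein with a small subunit protein, read 1237 FPKM in the KO and 1143 FPKM in the WT library. Gnb2l1, now called Rack1, a scaffold on the small subunit head, read 966 FPKM in the KO and 922 FPKM in the WT library. Their log2 ratios ran from 0.07 to 0.11.

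Genes that build ribosomes were above 0 in 41 of 50 cases, or 39 with equal sums, with a median log2 ratio of 0.07, against 57.6%, or 50.3% with equal sums, and 0.03 over all measured genes. Among those at 10 FPKM or more, Nop10, of the box H/ACA complex that modifies ribosomal RNA, was farthest from 0 at 139 FPKM in the KO and 118 FPKM in the WT library. Imp3 and Nop2 had log2 ratios of 0.20 and 0.18. RNA polymerase I genes, which transcribe ribosomal RNA, numbered 10 of 13 above 0, or 9 with equal sums, and their median was 0.06. Those at 10 FPKM or more that lay farthest from 0 were Znrd1 (0.12), Rrn3 (0.11) and Polr1c (0.06).

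Translation initiation factors numbered 29 of 36 above 0, or 24 with equal sums, with a median of 0.06. All measured genes had 57.6% above 0, or 50.3% with equal sums, and a median of 0.03. The cap-complex helicase gene Eif4a2 stood at 119 FPKM in the KO and 102 FPKM in the WT library. Eif2b2 had a log2 ratio of 0.23 and Eif1a one of -0.18. Elongation, termination and nascent-chain factors, many of which share the pyrimidine start, lay above 0 for 12 of 13, or 11 with equal sums, and had a median of 0.06. Tpt1 read 2518 FPKM in the KO and 2363 FPKM in the WT library, and Naca and Eef1d had log2 ratios of 0.12 and 0.14.

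Genes of the growth signals that act on these mRNAs went both ways, with 11 of 18 above 0, or 10 with equal sums, and a median of 0.07. These are shares of 61.1% and 55.6%, near the 57.6% and 50.3% over all measured genes. Eif4ebp1, a brake on cap-dependent translation, read 143 FPKM in the KO and 118 FPKM in the WT library. Its relative Eif4ebp2 read 37.6 FPKM in the KO and 47.6 FPKM in the WT library, a log2 ratio of -0.33, and Max, the partner of MYC, had one of -0.16. Genes that respond to faulty ribosomes had 9 of 13 above 0, or 7 with equal sums, shares of 69.2% and 53.8%, and a median of 0.07. At 10 FPKM or more the list was led by Zfp622 at 19.0 FPKM in the KO and 15.2 FPKM in the WT library, followed by Nemf (0.15) and Gcn1l1 (0.10). No gene of these lists differed by 2-fold.

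Mitochondrial ribosomal proteins, which serve the separate ribosome of mitochondria, had 70 of 76 above 0, or 65 with equal sums, and a median log2 ratio of 0.15. That is beside 79 of 83 and 0.07 for the cytosolic set, and 57.6%, or 50.3% with equal sums, and 0.03 for all measured genes. The difference between the sets could not be tested with 1 library per group. Mrps6 read 102 FPKM in the KO and 64.1 FPKM in the WT library, and Mrpl41 and Mrps35 had log2 ratios of 0.35 and 0.34. Proteasome genes had 32 of 39 above 0, or 29 with equal sums, and a median of 0.07, beside the same shares of all genes, led by the immunoproteasome genes Psmb9 (0.26), Psmb10 (0.26) and Psmb8 (0.22). The 39 were chosen by symbol and include Psmc3ip, which is not a proteasome subunit and was below 0. It read 1.55 FPKM in the KO and 1.59 FPKM in the WT library.

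**Figure D5:**
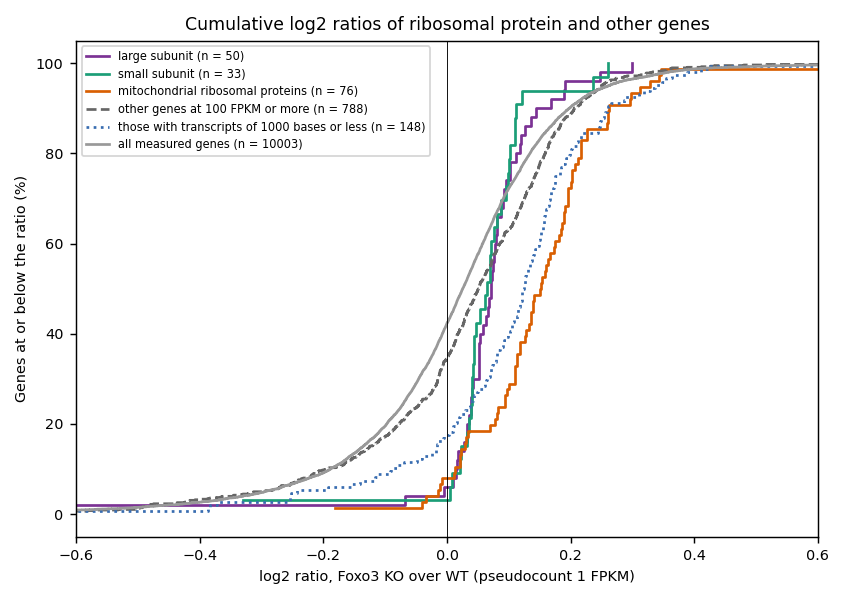
Percentage of genes at or below each log2 ratio, Foxo3 KO over WT, for large and small subunit genes, mitochondrial ribosomal proteins, other genes at 100 FPKM or more, those of them with transcripts of 1000 bases or less, and all measured genes, with genes beyond the axis not drawn. The curves of both subunits rise steeply between 0 and 0.1 and lie over each other, while that of the mitochondrial set lies to their right over most of its height.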

How the data were processed

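Libraries were built from poly-A-selected mRNA with a TruSeq kit of Illumina, per the labels' protocols. TopHat, edgeR and mm10 were used by the authors, per the submitters' processing notes, which give no roles or versions. The deposited values are FPKM as read from the values themselves, since no header or label names a unit: they are not whole numbers and sum to 540601 in the KO and 530701 in the WT library. A constant of 0.000001 carried by each value was subtracted. Not given in the sources used here are the quantifier, annotation, filters and read totals, so no count model or interval was used and there was no test.

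The members, lists and rules were chosen with earlier results of these data known. Named genes were the 6 highest in level per subunit, the 4 highest and 4 lowest log2 ratios per subunit at 100 FPKM or more, stalk genes, paralogs, and 3 per list. Others were chosen after their values were seen. Some genes that this rule names are not reported here. Each library was also scaled to equal sums, or by a trimmed mean of log ratios (30% trimmed at each end, and 5% of levels). Marker and pathway lists were matched by symbol or RefSeq synonym. Gene roles, 1.1-fold counts, shared stretches, the short-transcript background and motifs other than the pyrimidine start were added after values were seen. Gene bounds, exon overlaps without regard to strand, coding sequence identity and shared 50-base stretches came from GENCODE M21 and start sequences from RefSeq. No protein sequences were used. Alternatives were other scalings, pseudocounts, minimums, thresholds and member sets. Steps were tested on simulated data. Python 3.11.15, numpy 2.4.6, pandas 2.3.3, Biopython 1.88 and matplotlib 3.10.9 were used.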

Additional observations from a re-analysis of the deposited data

How the results depend on the processing

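Of 91 recomputed values 77 stayed near the reported one and none changed sign, though counts and shares cannot. A median counted as moved past 0.07, the SD of log2 ratios across core genes, a count past 1.5 times and a share past 0.5 percentage points, which are wide bounds. The median log2 ratio ran from 0.0421 with equal sums to 0.07 in core genes, and summing Rpl34 and Rps27 with their near copies, added after the data were seen, also gave 0.07. The large minus small difference ran from 0.0042 to 0.0192. The bound of 0.07 is about the reported median and far above this difference, so neither could easily count as moved. Members below 0 numbered 4 as reported, 10 after trimmed-mean scaling, 12 with equal sums, 12 centred on the median gene, 2 with a minimum of 10 FPKM, 2 in core genes, 1 at 100 FPKM or more and 2 of 46 without exon overlap, of which 42 were above 0 and the rest not measured. The last 4 follow from fewer genes, and the scalings lower all ratios alike. Members 2-fold lower were 1 with a pseudocount of 0.25, Rpl39l, and 2 at the lower threshold of 0.32 on the log2 scale, Rpl39l and Rps27. The summed share was 7.26% in the KO and 7.01% in the WT library without genes of overlapping exons, and 15.8% in the KO and 15.4% in the WT library without the 10 most abundant other genes, both by construction. No paired analysis was possible because the labels give 1 library to either genotype, and none could be left out. Depth is not stated, and by the estimate above the KO library was 1.40 times as deep. The limit that depth sets on the low members was not measured.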
